A study of Mus musculus with 22 samples.

Results

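The HoxA, HoxB, HoxC and HoxD gene clusters were examined in ATAC-seq peak lists of retinal endothelial cells from mouse pups at postnatal day 6. ATAC-seq uses the Tn5 transposase, which cuts and tags open chromatin, so that a peak (called a region here) marks a stretch of accessible DNA. Members were the regions whose midpoint lay in 4 windows of the mm9 build: HoxA at 52.10 to 52.23 Mb of chromosome 6, HoxB at 96.05 to 96.24 Mb of chromosome 11, HoxC at 102.74 to 102.87 Mb of chromosome 15 and HoxD at 74.48 to 74.62 Mb of chromosome 2. The windows held 31 of the 108489 peaks in both lists, 22 in the control list and 9 in the gTKO list. The control list stands for 3 libraries of C57BL/6 pups with the genotype S1pr3-/- S1pr1flox/flox S1pr2flox/flox. The gTKO list stands for 3 libraries of pups that carried Rosa26-CreERT2 in addition. S1pr1, S1pr2 and S1pr3 encode receptors for the blood lipid sphingosine 1-phosphate, and S1pr3 was absent from both genotypes. Pups of both genotypes received 100 µg tamoxifen, which activates the recombinase, between postnatal days 1 and 3. The Rosa26 locus is active in nearly all cell types, so deletion was not restricted to endothelium, and no group carried the recombinase with intact receptors. Each library pooled retinas of 4 to 6 pups and started from 5000 to 8000 sorted cells. The labels also describe the cells as adult, which conflicts with the stated age.

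Hox genes encode homeodomain transcription factors that give cells their position along the head-to-tail axis of the embryo. In mammals they lie in 4 clusters that arose by duplication, and genes with the same number in different clusters are paralogs. Low-numbered genes act nearer the head and high-numbered genes nearer the tail, in the same order as they lie along the chromosome. Hox genes are switched on from the hindbrain backwards, while the eye and forebrain form in front of that domain. Where the genes are silent, the clusters are classic targets of Polycomb group repressors, which compact chromatin. The 38 Hox genes considered were all found in RefSeq (GRCm38.p6), which was used for gene order and start-site sequences alone because its coordinates are not those of mm9. In RefSeq, HoxA runs upwards along chromosome 6 from Hoxa2 to Hoxa13. The other clusters run the opposite way, from Hoxb13 to Hoxb1, from Hoxc13 to Hoxc4 and from Hoxd13 to Hoxd1. Evx1 follows HoxA, Evx2 and Lnpk precede HoxD, Mtx2 follows HoxD, Skap1 follows HoxB, and Smug1, Cbx5 and Hnrnpa1 follow HoxC. A region could not be assigned to a single Hox gene, because no mm9 annotation was used here. For the same reason the labelled cell type was not checked against regions at endothelial marker genes.

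The sequence around Hox transcription starts is printed here because start sites rich in the dinucleotide CG (CpG islands) are commonly open chromatin. RefSeq windows of 300 bases, 250 before and 50 after the start, were matched for 22 of the 38 genes and numbered 24. The richest of them over the 300 bases, Hoxa13 (45 CG), and Hoxd4 (4 CG) are shown. Hoxd4 shares the lowest count with Hoxa9 and the first Hoxd11 window. Both are printed 5′ to 3′ on the gene's strand, as the 250 bases before the start, with each CG in capitals. Hoxa13, the tailward end of HoxA, lies on the minus strand, and its stretch is chr6:52260881-52261130 in GRCm38.p6. Hoxd4, a headward gene of HoxD, lies on the plus strand, and its stretch is chr2:74721728-74721977 in GRCm38.p6.
Hoxa13: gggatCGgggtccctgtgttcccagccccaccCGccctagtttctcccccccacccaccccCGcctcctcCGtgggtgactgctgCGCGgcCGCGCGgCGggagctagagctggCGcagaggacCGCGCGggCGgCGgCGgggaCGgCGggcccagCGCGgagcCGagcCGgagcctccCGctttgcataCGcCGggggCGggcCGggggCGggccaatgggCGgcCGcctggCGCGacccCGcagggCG
Hoxd4: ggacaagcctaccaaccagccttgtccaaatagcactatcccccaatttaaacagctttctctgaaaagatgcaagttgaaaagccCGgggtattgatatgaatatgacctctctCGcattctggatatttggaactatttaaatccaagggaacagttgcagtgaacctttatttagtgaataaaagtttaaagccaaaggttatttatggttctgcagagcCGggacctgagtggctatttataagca
The stretch of Hoxa13 holds 35 CG dinucleotides and that of Hoxd4 holds 3. Over the full 300 bases, the 24 Hox windows held between 4 and 45 CG, with a median of 14.5, against a median of 7 over all 32851 RefSeq windows of that length. Of the 24, 20 lay above the median of all windows. The Hox median of GC content was 57.7%, against 52.7%. The 10 HoxA windows had a median of 17.5 CG and the 10 HoxD windows a median of 20. HoxB was represented by Hoxb1, Hoxb4 and Hoxb8, with 10, 14 and 13 CG, and HoxC by Hoxc4 alone, with 9. The matched Hox start sites, mostly of HoxA and HoxD, were thus mostly richer in CG than the typical RefSeq start. Their median lay within the middle 50% of all windows (3 to 20). Whether a given start was accessible in these cells was not tested.

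**Figure D1:**
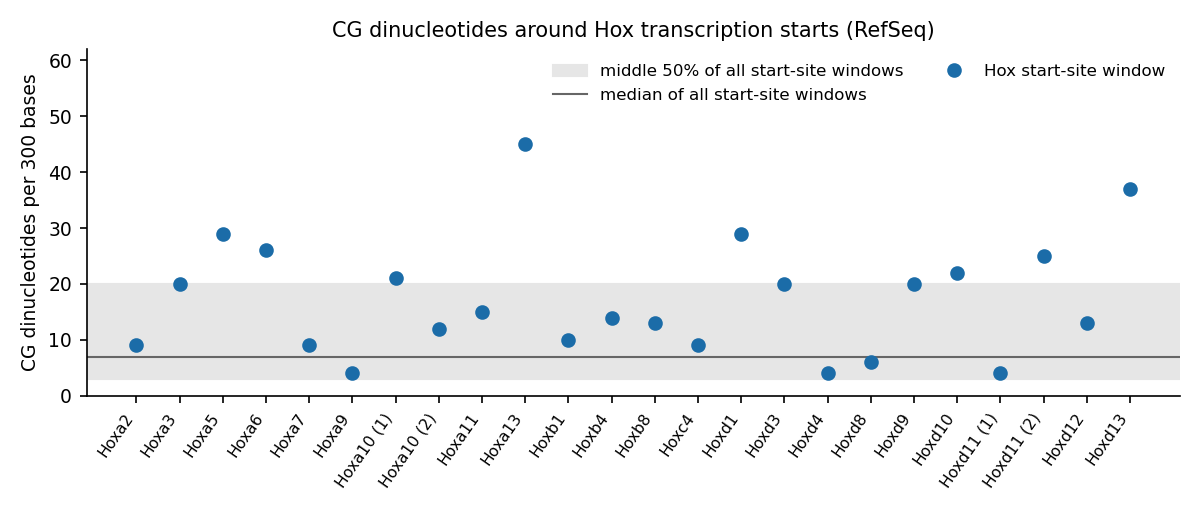
CG dinucleotides in 300 bases around the transcription starts of 22 Hox genes (24 RefSeq windows, blue points), with the median (line, 7) and the middle 50% (grey band, 3 to 20) of all 32851 windows. Hoxa13 (45) and Hoxd13 (37) stand highest, and Hoxa9, Hoxd4 and the first Hoxd11 window lowest, at 4 each.

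The deposited data hold 1 peak list per genotype, so the values below have no replicate error, describe these lists and carry no test between genotypes. How deeply the libraries were sequenced cannot be read from the lists. The control list is the larger, with 57267 regions on chromosomes 1 to 19, X and Y against 49558 in the gTKO list. Fewer cells with an open site and less accessibility per cell cannot be told apart in such bulk libraries. Regions that overlapped by at least 1 bp were counted as shared, and the others as control-only or gTKO-only. Over the whole lists 27.0% of control regions were control-only and 9.75% of gTKO regions gTKO-only. With the control list reduced to as many regions as the gTKO list by dropping its narrowest, a setting chosen after seeing the data, 8 of 16 control regions of the clusters were control-only and gTKO coverage there was 44.7% of control coverage. Intervals are 95% Clopper-Pearson (exact) and express counting error alone, as if regions were independent.

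Accessible regions in the Hox clusters were narrow in both lists, and fewer in the gTKO list. The control list placed 22 regions in the 590 kb of the 4 windows and covered 6605 bp, 1.12% of the sequence. The gTKO list placed 9 regions there and covered 2539 bp, 0.430%. Coverage in the gTKO list was thus 38.4% of that in the control list, against 77.1% over all placed regions. No Hox region of either list reached 1000 bp, a width found in 15.3% of all control regions and 10.8% of all gTKO regions. The widest control region of the clusters measured 870 bp and the widest gTKO region 437 bp. Control widths in the clusters had a median of 207 bp, against 359 bp in the whole list. For the gTKO list the medians were 275 bp and 337 bp.

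The 4 clusters differed from one another. HoxD was covered most, at 2.44% of its window in the control list, followed by HoxA at 1.497%, HoxB at 0.466% and HoxC at 0.276%. In the gTKO list the order of the first pair was the same, at 1.04% for HoxD and 0.695% for HoxA, while HoxC was covered at 0.133% and HoxB not at all. All shared regions lay in HoxA and HoxD, 4 in each. With 9, 6, 5 and 2 control regions per cluster, the counting error of each of these values is large.

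**Figure D2:**
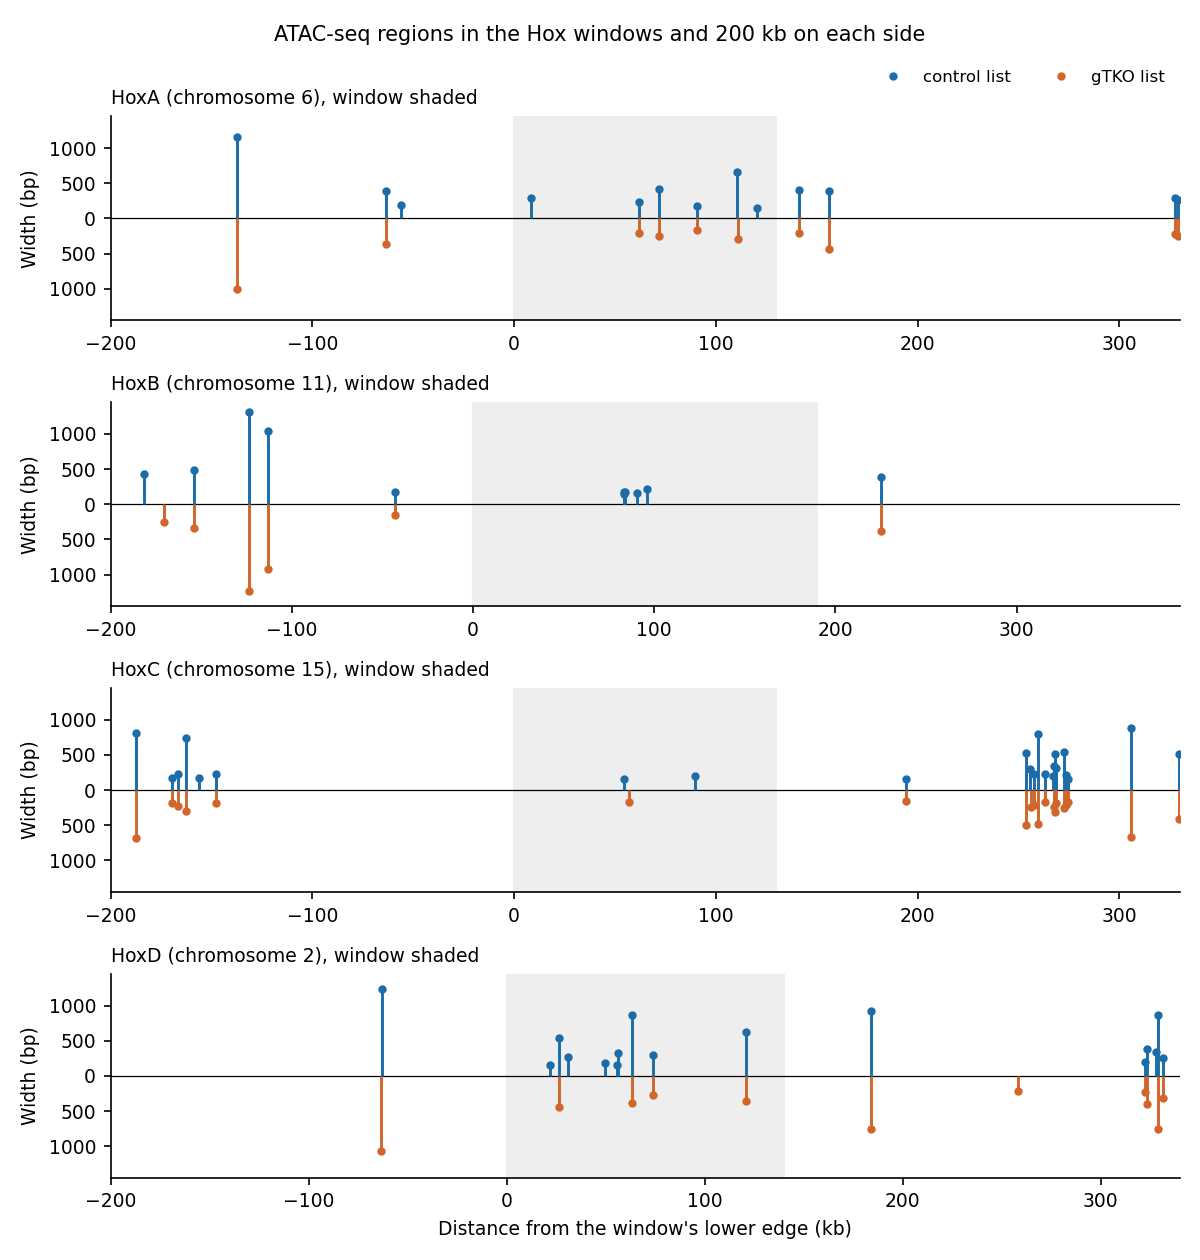
Position and width of each region in the 4 Hox windows (shaded) and the 200 kb on each side. The horizontal axis is the distance from the window's lower edge in kb, and each stem is 1 region whose length is its width in bp, upwards for the control list and downwards for the gTKO list. HoxA and HoxD show stems on both sides, whereas the 5 control regions of HoxB have no gTKO counterpart.

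HoxA held 6 control and 4 gTKO regions, and every gTKO region overlapped a control region. Its widest control region, chr6:52210370-52211027, measured 658 bp and lay towards the upper end of the window, the side of the high-numbered genes in RefSeq order. The gTKO region there, chr6:52210701-52210993, measured 293 bp and began 331 bp later. The control region chr6:52171519-52171939 measured 421 bp and its gTKO partner 246 bp. The control region chr6:52161586-52161825 (240 bp) matched a gTKO region of 203 bp. The narrowest match was chr6:52190438-52190612, of 175 bp, with a gTKO partner of 161 bp. The shared sites were spaced 9.69, 18.5 and 19.8 kb apart, and lay from 61.7 to 111 kb above the window's lower edge. Both control-only regions lay outside this run. The region chr6:52108249-52108545 (297 bp) stood alone near the lower edge, the side of the low-numbered genes, 53.1 kb from the nearest gTKO region. The region chr6:52220580-52220734 (155 bp) was the uppermost and lay 9.59 kb from the nearest gTKO region. The longest stretch of the window without a region in either list ran for 53.0 kb, from 52108546 to 52161585, which is 40.8% of the window.

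HoxD held 9 control and 4 gTKO regions, the most of the 4 clusters in the control list. Its widest control region, chr2:74543084-74543953, measured 870 bp, which is as wide as or wider than 80.4% of the control list. The gTKO region there, chr2:74543149-74543541, measured 393 bp and ended 412 bp earlier. The control region chr2:74600833-74601458 measured 626 bp and its gTKO partner, chr2:74600777-74601134, 358 bp. This uppermost site lies on the side of the low-numbered genes. At the lower, high-numbered side, the control region chr2:74506230-74506766 (537 bp) matched a gTKO region of 437 bp. The site chr2:74553854-74554155 measured 302 bp, with a gTKO partner of 275 bp. The shared sites thus spread over most of the window, from 26.5 to 121 kb above its lower edge.

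The 5 control-only regions of HoxD lay in the lower part of the window, between shared sites or next to them. The widest, chr2:74535895-74536221 (327 bp), was separated by only 12 bp from chr2:74535732-74535882 (151 bp). The region chr2:74511016-74511283 (268 bp) lay 4.21 kb from the nearest gTKO region. The others were chr2:74529701-74529883 (183 bp) and chr2:74501705-74501854, which at 150 bp had the smallest width found in the lists. Between 74554158 and 74600776, 46.6 kb held no region in either list.

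HoxB held 5 control regions and no gTKO region. All 5 lay within 12.9 kb near the middle of the 190 kb window, from 96133112 to 96145982. The first 3, chr11:96133112-96133263 (152 bp), chr11:96133364-96133543 (180 bp) and chr11:96133591-96133768 (178 bp), were separated by 100 and 47 bp. The remaining regions were chr11:96140159-96140315 (157 bp) and chr11:96145764-96145982 (219 bp). Each of the 5 was narrow, and the widest of them exceeded or equalled 27.1% of the control list. Control regions were otherwise absent from the window, including its uppermost 94.0 kb, the side that ends in Hoxb1 in RefSeq order. In the gTKO list the stretch without a region reached beyond the window on both sides and measured 268 kb, from 96007145 to 96274875. The nearest gTKO region was thus at least 126 kb away from each control region of HoxB. With 0 of 5 shared, a shared fraction of up to 52.2% remains possible by the exact interval. The approximate bound of 3 divided by the number of regions is 60%, which is rough for so few regions.

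HoxC held the least accessible sequence of the 4 clusters in the control list. Its control regions were chr15:102794201-102794364 (164 bp) and chr15:102829707-102829901 (195 bp), and neither overlapped a gTKO region. Its gTKO region, chr15:102796909-102797081 (173 bp), was the only gTKO-only region of the clusters. It lay 2.54 kb above the first control region, and no site was called in both lists. The other control region was 32.6 kb away from it. Neither list called a region in the lowest 54.2 kb of the window, the side of Hoxc13. A count of 0 shared regions of 2 sets no useful limit, with an exact upper bound of 84.2%.

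Sites called in both lists were wider in the control list at each of the 8 places. The ratio of control to gTKO width ranged from 1.09 to 2.25, with a median of 1.47, and it was at least 1.5 at 4 sites. Over all 37878 one-to-one matches in the lists, 79.5% were wider in the control list and the median ratio was 1.15. For the 8 Hox sites the share of 100% has an interval of 63.1 to 100%, which includes the share of all pairs. The control regions at these sites had a median width of 479 bp and their gTKO partners one of 284 bp. The difference ranged from 14 to 477 bp per site and came to 1463 bp in all. At 4 sites, 3 of them in HoxA, the gTKO region lay wholly inside the control region, and at the other 4 one edge lay outside it. The sequence missing from the gTKO list lay mostly on the lower side at the widest HoxA site (331 bp, against 34 bp on the upper side) and mostly on the upper side at the widest HoxD site (412 bp, against 65 bp). No Hox region overlapped more than 1 region of the other list. Over the whole list 3021 of 57267 control regions did so, and 0 of 41 in the 200 kb on each side of the windows. The 0 of 22 control regions in the clusters has an interval of 0 to 15.4%, which includes the whole list's share. Of these 22, 14 had no gTKO partner and so could not be split, a larger share than in the whole list (63.6% against 27.0%).

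**Figure D3:**
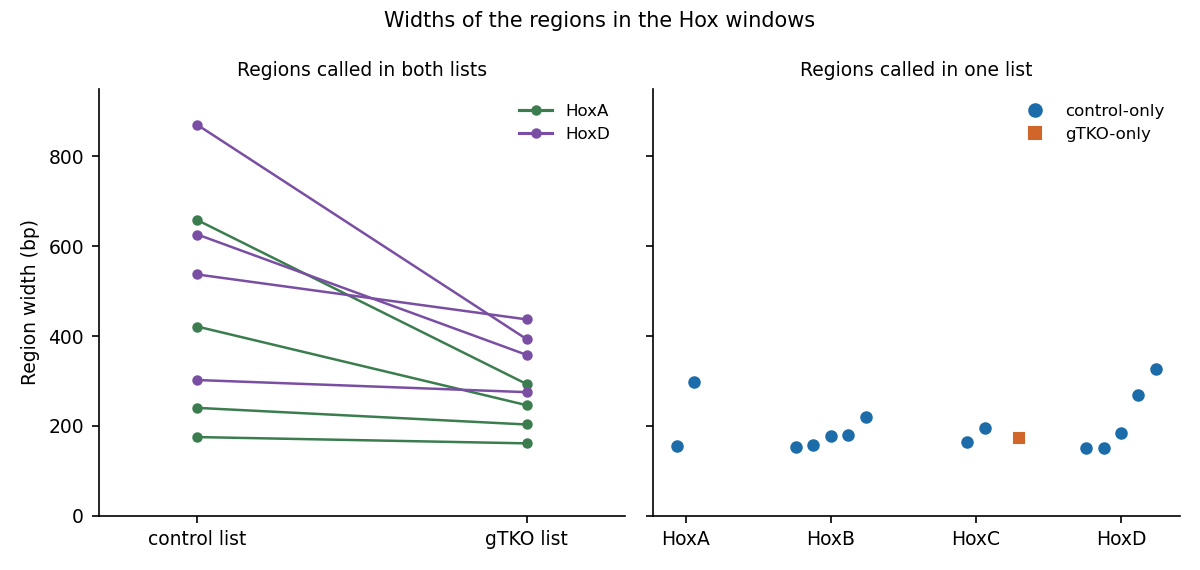
Width in bp of every region in the 4 Hox windows: on the left the 8 sites called in both lists, each joined by a line from control to gTKO and coloured by cluster, on the right the regions called in a single list, by cluster. All 8 lines slope down, and the single-list regions lie between 150 and 327 bp.

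Control-only regions made up a larger share of the clusters than of their surroundings. Against the 27.0% of the whole list (15471 of 57267), 14 of 22 control regions in the Hox windows were control-only, 63.6% with an interval of 40.7 to 82.8%. By cluster the numbers were 2 of 6 in HoxA, 5 of 5 in HoxB, 2 of 2 in HoxC and 5 of 9 in HoxD. The gTKO list had 1 gTKO-only region among its 9 in the clusters, 11.1% with an interval of 0.281 to 48.2%, against 9.75% in the whole list. That share is near the background at an overlap of 1 bp, but it was 44.4% (4 of 9) where at least 50% of both regions had to be covered.

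Control-only regions in the clusters were narrow, as they were elsewhere. They measured 150 to 327 bp with a median of 179 bp, against 194 bp for all control-only regions, and 10 of the 14 were under 200 bp. Within the class of 150 to 199 bp, 10 of 11 Hox regions were control-only (90.9%, interval 58.7 to 99.8%), against 66.4% of that class in the whole list. Of the Hox regions from 200 to 299 bp, 3 of 4 were control-only, against 38.5% in the whole list. Of those from 300 to 499 bp, 1 of 3 was, against 19.1%. None of the 4 Hox regions of 500 bp or more was control-only, against 3.65% of the whole list's regions from 500 to 999 bp. If each Hox region had the share of its width class in the whole list, 9.56 of the 22 would be control-only, or 43.5%. That value lies inside the interval of the observed share. Weighting by width class thus moved the reference share from 27.0% to 43.5%.

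**Figure D4:**
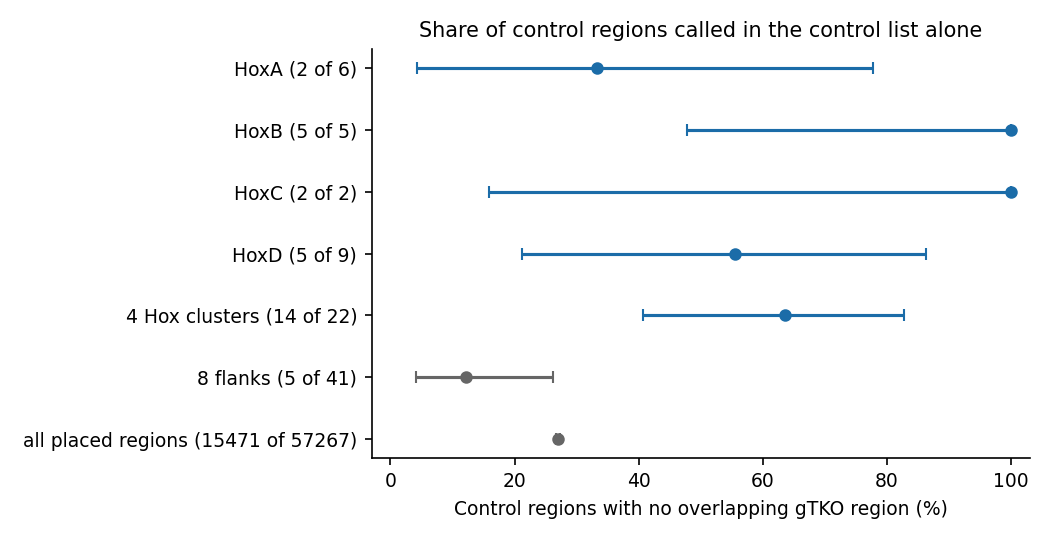
Share of control regions without an overlapping gTKO region, in percent, for each Hox cluster, the 4 together, the 8 flanks of 200 kb and all placed regions. Points are shares and bars exact 95% Clopper-Pearson intervals (counting error only). The interval of the 4 clusters together (40.7 to 82.8%) lies above that of the flanks (4.08 to 26.2%), while the single clusters have wide intervals.

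The 200 kb on each side of the windows were then compared with the clusters. These 8 flanks, 1600 kb in all, held 41 control and 38 gTKO regions, which covered 1.21% and 0.953% of their sequence. With flanks of this width, control coverage was thus close to that of the clusters (1.12%), whereas gTKO coverage was 2.21 times that of the clusters. Of the 41 control regions in the flanks, 5 were control-only, 12.2% with an interval of 4.08 to 26.2%. This interval does not overlap that of the clusters. It did overlap with regions of 300 bp or more alone, where 4 of 7 cluster and 8 of 25 flank regions were control-only, without HoxC (60.0% and 15.0%), with flanks of 100 kb (1 of 9 flank regions) and with the control list reduced to the size of the gTKO list (8 of 16 and 4 of 36). The flank share of 12.2% was below the 26.5% that the flanks' widths would give at the whole list's shares. That 26.5% lies just above the flanks' interval, while the 43.5% given by the widths in the clusters lies inside the clusters' interval. Flank regions were wider, with a control median of 381 bp, and 4 of them measured 1000 bp or more. In the 36 flank sites called in both lists the median ratio of control to gTKO width was 1.14. Coverage in the gTKO list was 78.7% of that in the control list, near the 77.1% of all placed regions. Control coverage of the flanks depended on their width, at 0.533% for 100 kb and 1.94% for 400 kb. The same held for gTKO coverage. With flanks of 100 kb it was 0.439%, near the 0.430% of the clusters, so the ratio of 2.21 belongs to flanks of 200 kb.

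Each cluster showed the same order against its own flanks. Coverage in the gTKO list as a percentage of the control list was 46.4% in HoxA and 80.1% in its flanks. In HoxB it was 0% against 85.2%, in HoxC 48.2% against 70.0%, and in HoxD 42.9% against 88.9%. In HoxC the 48.2% compares regions at different sites. The flanks of HoxC held 21 of the 41 control regions, and only 2 of these were control-only. The widest flank region below HoxA, chr6:51961965-51963116, measured 1152 bp and its gTKO partner 1000 bp. Below HoxB, chr11:95925749-95927059 measured 1311 bp and its gTKO partner 1229 bp. Below HoxC, chr15:102552232-102553037 measured 806 bp, with a gTKO partner of 679 bp. Below HoxD, chr2:74416202-74417441 measured 1240 bp and its gTKO partner 1063 bp. On the upper sides, the widest control regions were 401 bp (HoxA, chr6:52241067-52241467), 388 bp (HoxB, chr11:96274912-96275299), 886 bp (HoxC, chr15:103045289-103046174) and 921 bp (HoxD, chr2:74663547-74664467). Their gTKO partners measured 207, 381, 672 and 750 bp. These flank sites were called in both lists, and the gTKO width was 75.8% to 98.2% of the control width at all of them except the upper HoxA site, where it was 51.6%. Lower values occurred at other flank sites beside HoxC. The gTKO partner of chr15:102576958-102577702 (745 bp) measured 295 bp (39.6%), and that of chr15:103012544-103013090 (547 bp) 262 bp (47.9%). Of all 36 flank sites called in both lists, 30 were wider in the control list. Among the others was a site above HoxA, where the gTKO region chr6:52255918-52256350 measured 433 bp and its control partner 395 bp.

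The density of regions over the 4 clusters pooled differed with distance from the windows. Within 100 kb of the windows' edges there were 9 control and 8 gTKO regions in 800 kb, or 1.12 and 1.00 per 100 kb. Between 100 and 200 kb there were 32 and 30, or 4.00 and 3.75 per 100 kb. Between 200 and 400 kb there were 77 and 67, or 4.81 and 4.19 per 100 kb. The clusters themselves held 3.73 control and 1.53 gTKO regions per 100 kb, against 2.17 and 1.88 over all placed sequence. Of the 32 control regions between 100 and 200 kb, 20 lay beside HoxC, as did 42 of the 77 between 200 and 400 kb. Without HoxC, a setting added after seeing the data, there were 8 control regions within 100 kb and 12 between 100 and 200 kb, or 1.33 and 2.0 per 100 kb, and the windows held 4.35. Between 200 and 400 kb the control density without HoxC was 2.92 per 100 kb. HoxA did not follow the pooled order, with 4 control regions within 100 kb and 3 between 100 and 200 kb. Nor did HoxD, whose control density was 1 per 100 kb within 100 kb, 2.5 between 100 and 200 kb and 1.75 between 200 and 400 kb. HoxB held no gTKO region in its window and 2 within 100 kb. The nearest in the control list were 55.8 kb below and 11.1 kb above HoxA, 42.8 and 34.9 kb from HoxB, 147 and 64.5 kb from HoxC, and 62.6 and 43.5 kb from HoxD. The control regions nearest the edge on the inside lay 8.25 kb (HoxA, lower edge) to 94.0 kb (HoxB, upper edge) from it, so no region was close to the windows' limits.

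**Figure D5:**
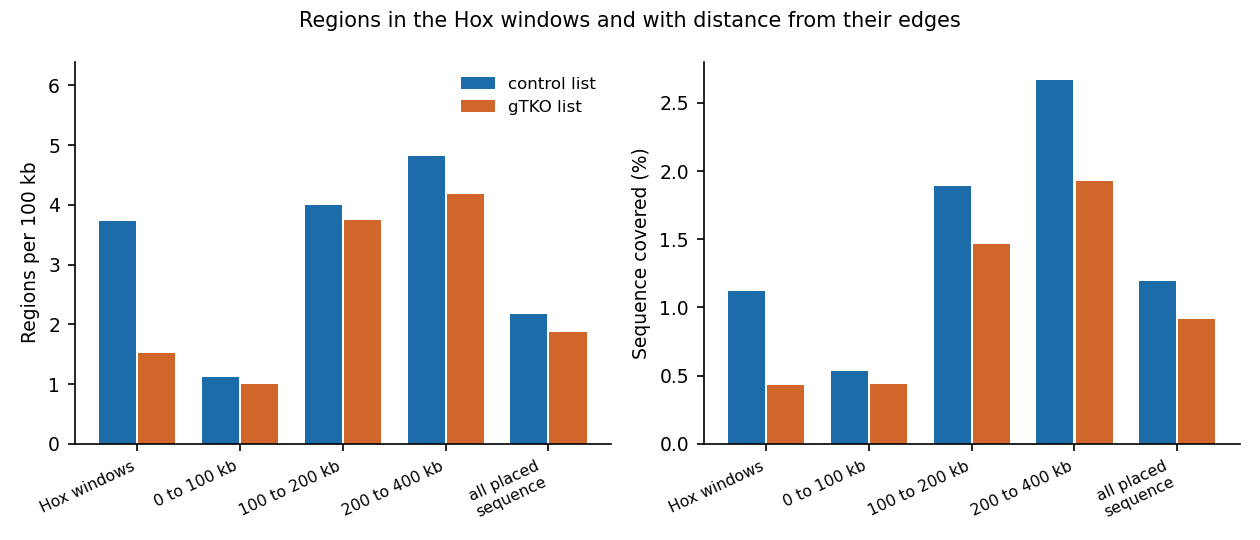
Regions per 100 kb (left) and percent of sequence covered (right) in the 4 Hox windows, in 3 ranges of distance from their edges on both sides, and over all placed sequence, for the control (blue) and gTKO (orange) lists. In the Hox windows the bars are 3.73 and 1.53 regions per 100 kb, and within 100 kb of the edges 1.12 and 1.00.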

How the data were processed

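ATAC-seq libraries numbered 3 per genotype, and the 16 RNA-seq libraries of the series are not analysed here. The authors deposited 1 peak list per genotype with sequence name, start and end, and no score, p value or summit. The sources used here give neither the calling threshold nor whether reads of replicates were pooled. The submitters' processing notes name Bowtie2, Picard, MACS2 and bedtools among the tools, and the build mm9. The narrowest peak measured 150 bp. No peaks overlapped or touched, so none were merged. Peaks on unplaced sequences (1044 control, 620 gTKO) were left out.

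Regions were assigned to windows by midpoint, shared at an overlap of at least 1 bp, and counted with Python 3.11.15, numpy 2.4.6 and scipy 1.17.1 (figures: matplotlib 3.10.9). Overlaps were checked with bedtools 2.31.1, and the counting was tested on simulated data. Every region in the 4 windows is given, some gTKO regions by width beside their control partner, and the widest control region in each flank is named. The windows, genes and comparisons were chosen with earlier results of these data known. Alternatives changed the overlap rule, smallest width, membership, joining, flanks and clusters included.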

Additional observations from a re-analysis of the deposited data

How the results depend on the processing

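Under all 10 alternatives that apply to the clusters, the control-only share stayed between 50.0% and 77.3% in the Hox windows, and it was above that of the flanks under the same setting each time. The share in the flanks ran from 9.76% to 32.0%. The value of 50.0% arose when the control list was reduced to the size of the gTKO list by dropping its narrowest regions, a setting chosen after seeing the data. The intervals of clusters and flanks stayed apart under 7 of the 10 and overlapped without HoxC, with the reduced list and with a smallest width of 300 bp. They also overlapped with flanks of 100 kb. Membership by any overlap with a window left the control-only shares of clusters and flanks unchanged. A gap of up to 100 bp left the clusters at 14 of 22. These settings thus add little to the count of 7. Of 124 alternative values for the clusters and flanks, 117 stayed within the counting interval or the spread between clusters. These limits are wide for the clusters. Their gTKO-only share rose from 11.1% to 44.4% (4 of 9) where at least 50% of both regions had to be covered. That value still counted as within the interval of 0.281 to 48.2%. At a smallest width of 300 bp, the flank share of control-only regions was 32.0%, flank coverage of the gTKO list was 68.6% of the control list, and the gTKO-only share of the clusters was 0%. That last share was also 0% without HoxC, which held the single gTKO-only region. With flanks of 100 kb, the gTKO-only share of the flanks was 0% and control coverage 0.533%, and with flanks of 400 kb control coverage was 1.94%, so the closeness of cluster and flank coverage depends on the width of the flanks. So does the higher gTKO coverage of the flanks, which at 100 kb was 0.439%, against 0.430% in the clusters. Joining regions at most 150 bp apart left 11 of 19 control regions of the clusters control-only. No paired analysis was possible because the 3 libraries of a genotype share 1 list, which also prevents leaving out a replicate. Read depth is unknown, and its effect was not measured.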

Other observations

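The placed chromosomes other than Y were divided into stretches of each cluster's length, and the clusters were set beside them. In the control list, 89.5% of 18829 stretches of 140 kb held fewer regions than HoxD (9), and 83.5% covered less sequence. For HoxA (6 regions), 83.1% of 20279 stretches of 130 kb held fewer regions, and for HoxC (2 regions) 57.8% did. For HoxB (5 regions), 70.0% of 13870 stretches of 190 kb held fewer regions. Ranks by covered sequence in the control list were lower, as 74.2% of stretches covered less than HoxA, 53.85% less than HoxB and 52.1% less than HoxC. In the gTKO list, 39.7% of stretches of 190 kb held no region, as HoxB did. Of stretches of the same length, 76.2% held fewer gTKO regions than HoxA (4), 74.5% fewer than HoxD (4) and 46.2% fewer than HoxC (1). The median stretch held 1 or 2 control regions, and 37.8% to 44.2% held none.

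The series' title names AP-1 transcription factors, whose sites hold the letters TGANTCA, which read the same on both strands. These letters occurred in 1 of the 24 Hox start-site windows (4.17%), the first of the 2 for Hoxd11, and in 7.81% of all 32851 windows of 300 bases. A match is a description of sequence, not a site.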
